A study of Mus musculus with 21 samples.

Results

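The contractile genes of vascular smooth muscle were followed here in the hearts of *Notch3*-/- and control (*Notch3*+/+) mice. The 10 genes, *Myh11*, *Myl9*, *Mylk*, *Acta2*, *Actg2*, *Tagln*, *Cnn1*, *Smtn*, *Lmod1* and *Myocd*, were chosen by name and matched to the deposited counts through their Ensembl identifiers, and all 10 were found among 46517 genes. Bulk RNA-sequencing, which measures the RNA of the whole tissue, had been done on hearts of 4 control and 3 *Notch3*-/- mice, each sequenced in 3 technical libraries, 21 in total. The paper describes RNA from frozen left ventricle for its qPCR, and its sequencing methods do not name the part of the heart. The labels give the strain of both groups as c57bl/6j, and the age of the mice was 10 to 14 months. In the *Notch3*-/- mice the *lacZ* gene, which encodes beta-galactosidase, is inserted into the *Notch3* locus, so the locus is altered in all cell types and throughout life. The labels do not give the sex of the mice. The labels of control mice 1 and 2 start with X and those of the remaining 5 mice with k, so only control mice are X-labelled.

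Smooth muscle cells of the vessel wall shorten when calcium-bound calmodulin activates myosin light chain kinase, which phosphorylates the regulatory light chain of myosin and lets it pull on actin filaments. The genes for these filaments and their binding proteins are switched on by serum response factor, which binds DNA elements called CArG boxes together with its cofactor myocardin. *Notch3* is the main Notch receptor of arterial smooth muscle cells and pericytes, and in the heart these cells make up a small share of the tissue beside cardiomyocytes, endothelial cells and fibroblasts.

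Technical libraries were added up within each mouse, with totals of 3046326 to 4638786 in control and of 3828763 to 5167869 in *Notch3*-/- mice. Levels are given as TMM-normalized counts per 1e+06 counts (CPM), and group values are means with the SD over mice. Values listed for single mice follow the mouse number, from 1 to 4 in control and from 1 to 3 in *Notch3*-/- hearts. The targeted gene was examined first. *Notch3* was at 57.3, 42.1, 57.6 and 61.8 CPM across the control mice and at 6.01, 7.57 and 4.73 CPM across the *Notch3*-/- mice. Each of the 3 *Notch3*-/- mice lay below all 4 control mice, as the labels say. The log2 fold change of *Notch3*, here and below *Notch3*-/- minus control, was -3.16 (SE 0.23, FDR 0.00173 by the quasi-likelihood test of edgeR, Benjamini-Hochberg adjusted over 14324 genes).

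Sex-linked genes divided the mice in another way than genotype. *Xist*, which is transcribed from the inactive X chromosome of females, had 1128 counts in control mouse 2 and 1729 in *Notch3*-/- mouse 1, and 2 to 25 counts in each of the other 5 mice. The Y-linked genes *Ddx3y*, *Eif2s3y*, *Kdm5d* and *Uty* together had 44 and 28 counts in these same mice and 857 to 1839 counts in each of the other 5.

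Hepatocyte genes also set mice apart. The 16 hepatocyte genes examined summed to 185, 305, 115 and 125 CPM across the control mice and to 7705, 14068 and 275 CPM across the *Notch3*-/- mice, so that *Notch3*-/- mice 1 and 2 were high and the sum of *Notch3*-/- mouse 3 lay within the range of the control mice. By the median over the 16 genes of the log2 difference from the control mean, *Notch3*-/- mouse 3 was at 1.59, above the control mice at -0.86 to 1.40. For 8 of the 16 every *Notch3*-/- mouse was above every control mouse, where this held for 4.57% of all genes tested. In control mice the most abundant of them was *Trf*, at a mean of 119 CPM, a gene that other tissues express as well, and none of the 16 was at 0 in every mouse.

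Differences are described first for the group of genes. A gene was called when its FDR was under 0.05 and its fold change 1.5 or more. Of the 10 contractile genes 8 passed the expression filter, and 0 of these 8 were called in either direction by edgeR, whereas over all genes tested 0.00698% were called as lower and 0% as higher. With an unadjusted p under 0.05 in the same test, 3 of the 8 genes (*Myh11*, *Myl9* and *Tagln*) were lower and 0 were higher, where 3.05% of all genes tested were lower and 7.34% higher. With DESeq2, 1 of the 10 genes, *Myh11*, was called as lower and 0 as higher, where 0.144% of the 17393 genes given an adjusted p were called as lower (25) and 3.29% as higher (572). The log2 fold change was negative for 6 of the 8 genes and its median was -0.30, while the median over all genes tested was -0.003 and 50.4% were negative. The groups of mice did not overlap for 1 of the 8 genes, *Myh11*, which was lower in every *Notch3*-/- mouse. Groups did not overlap for 3.96% of all genes tested with *Notch3*-/- lower and for 4.57% with *Notch3*-/- higher. In a bulk sample, fewer smooth muscle cells and less RNA per smooth muscle cell cannot be told apart.

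**Figure D1:**
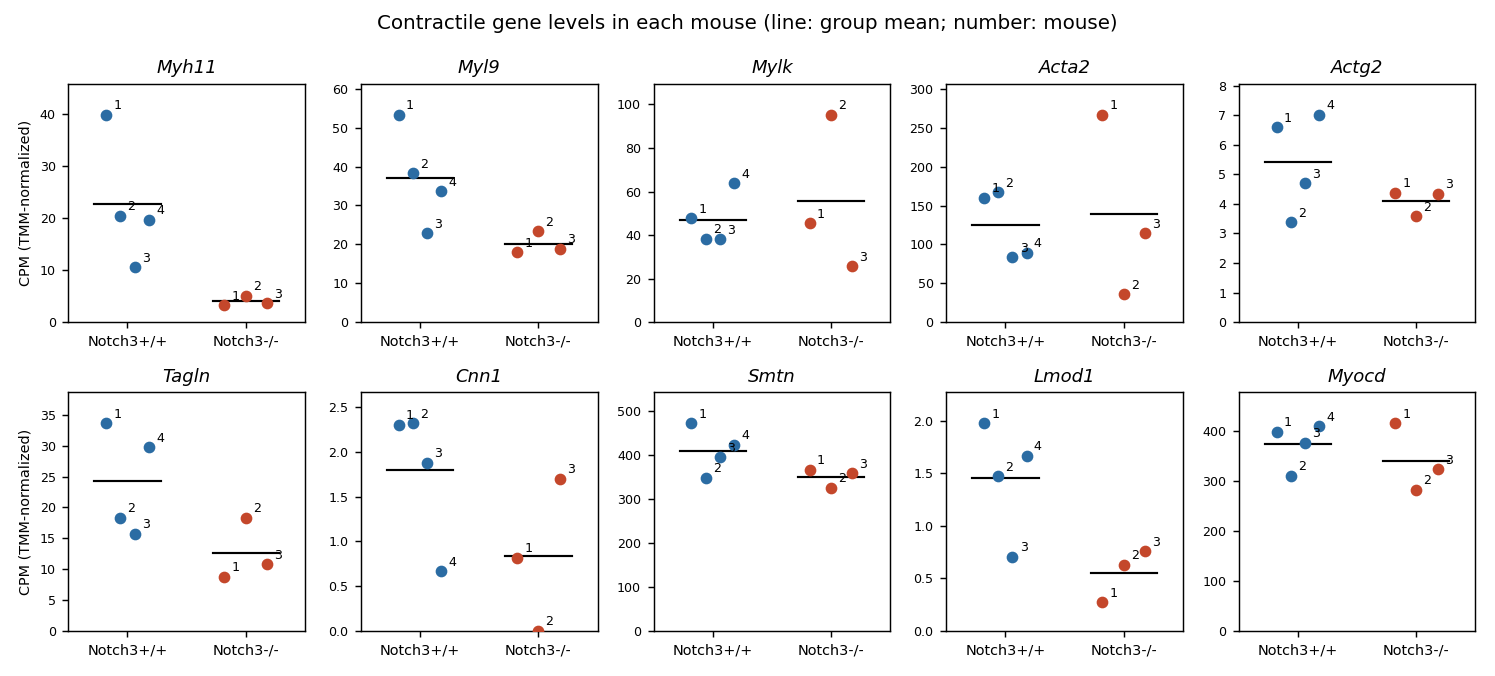
Level of each contractile gene in CPM (vertical axes, linear and starting at 0, with a scale of their own for each gene) in 4 control and 3 *Notch3*-/- mice; each numbered point is a mouse and each line the group mean. For *Myh11* the *Notch3*-/- mice sit at 3.28 to 5.05 CPM, below the control mice at 10.6 to 39.8 CPM, and for *Acta2* the *Notch3*-/- mice spread from 36.0 to 267 CPM.

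The thick filament of smooth muscle is built from the heavy chain encoded by *Myh11*, a marker largely limited to differentiated smooth muscle cells. *Myh11* (ENSMUSG00000018830, chromosome 16 from 14194535 to 14291372, minus strand, GRCm38) had 121, 97, 45 and 59 counts across the control mice and 12, 24 and 19 across the *Notch3*-/- mice. In CPM these were 39.8, 20.4, 10.6 and 19.7 in the control mice and 3.28, 5.05 and 3.59 in the *Notch3*-/- mice. Control mouse 1 was the highest and control mouse 3 the lowest of its group, and even that mouse lay above each *Notch3*-/- mouse. The mean was 22.6 ± 12.3 CPM (SD, n = 4) in control and 3.97 ± 0.94 CPM (SD, n = 3) in *Notch3*-/- hearts. The log2 fold change was -2.49 (SE 0.45, 95% confidence interval -3.49 to -1.48), a level 5.60-fold lower, with a Benjamini-Hochberg FDR of 0.118 in edgeR, which misses the threshold.

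The call for *Myh11* depended on the method. DESeq2 gave a log2 fold change of -2.51 with an adjusted p of 5.66e-05, and over the 21 alternative settings the log2 fold change of *Myh11* ran from -3.49 to -1.55 and its adjusted p from 5.66e-05 to 0.734. Without *Notch3*-/- mouse 3, 936 of the 15008 genes tested were called, 33 as lower and 903 as higher. There *Myh11* was called as lower (log2 fold change -2.41, edgeR, Benjamini-Hochberg FDR 0.0254). In the k-labelled mice alone, with 2 control and 3 *Notch3*-/- mice, it was -1.92 with a Benjamini-Hochberg FDR of 0.734 in edgeR. Without the hepatocyte genes in the normalization the log2 fold change of *Myh11* was -2.50 (edgeR, Benjamini-Hochberg FDR 0.109). This setting also moved the other contractile genes little, with *Acta2* at 0.14 and the median of the tested genes at -0.31. In the 5 mice with many Y-linked counts the log2 fold change of *Myh11* was -2.42 (edgeR, Benjamini-Hochberg FDR 0.427). What part hepatocyte RNA or sex had in the difference was not tested.

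*Myh11* was also examined library by library. The 12 control libraries had 6.73 to 51.6 *Myh11* counts per 1e+06 counts of the library (median 18.4), and the 9 *Notch3*-/- libraries 0 to 12.2 (median 4.20), so the ranges of single libraries overlapped. The libraries of *Notch3*-/- mouse 1 had 12, 0 and 0 counts of *Myh11*, and in the 2 libraries without a count 3 counts, the 95% Poisson limit of a count of 0, correspond to 1.69 and 2.79 per 1e+06 counts, below the 12.2 of the first library. This mouse therefore had the highest and the lowest *Myh11* value among the *Notch3*-/- libraries. The 3 libraries of a mouse spread more than counting error alone gives, with a chi-square per degree of freedom of 4.09 for *Myh11* over the 7 mice. Limits from a count of 0 cover counting error only, since reads amplified by PCR without molecular identifiers are not independent molecules.

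**Figure D2:**
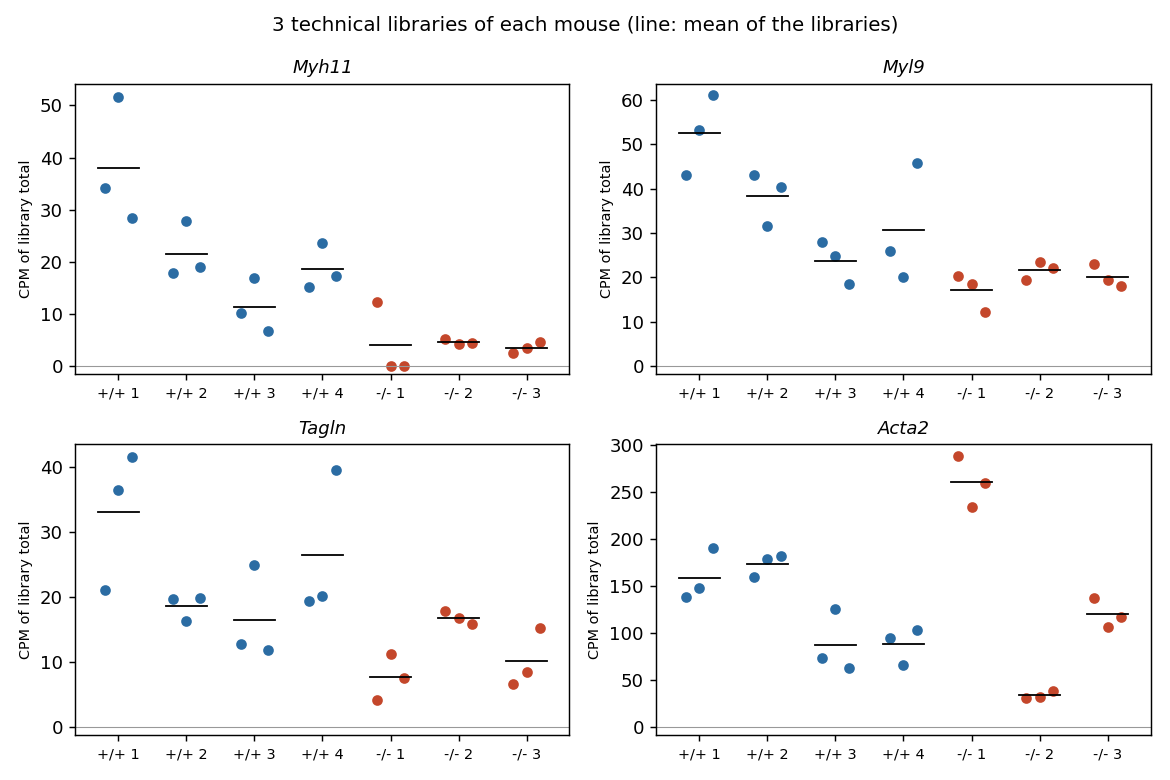
*Myh11*, *Myl9*, *Tagln* and *Acta2* in each of the 3 technical libraries of every mouse, in counts per 1e+06 counts of the library (vertical axes, linear); +/+ are control and -/- are *Notch3*-/- mice, each point is a library and each line the mean of 3 libraries. The 3 *Acta2* values of *Notch3*-/- mouse 1 lie at 234 to 288 and those of *Notch3*-/- mouse 2 at 30.3 to 38.5, while 2 *Myh11* values of *Notch3*-/- mouse 1 are at 0.

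*Myl9* encodes the regulatory light chain on which the kinase acts. *Myl9* was at 53.3, 38.4, 22.8 and 33.7 CPM across the control mice and at 18.0, 23.3 and 18.9 CPM across the *Notch3*-/- mice. The groups overlapped by a narrow margin, because *Notch3*-/- mouse 2 was above control mouse 3. For *Myl9* the log2 fold change was -0.88 (SE 0.27, 95% confidence interval -1.48 to -0.27), with a Benjamini-Hochberg FDR of 0.288 in edgeR. Among the k-labelled mice it was -0.49 (edgeR, Benjamini-Hochberg FDR 0.755).

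*Mylk* encodes the light chain kinase, which smooth muscle shares with nonmuscle cells. *Mylk* was at 47.7, 38.4, 38.1 and 63.8 CPM in control mice and at 45.4, 95.3 and 25.7 CPM in *Notch3*-/- mice 1 to 3. The *Notch3*-/- mice held both the highest and the lowest value of all 7, so the groups overlapped. Its log2 fold change was 0.24 (SE 0.38, edgeR, Benjamini-Hochberg FDR 0.870), and without *Notch3*-/- mouse 2 it was -0.41.

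Among the genes of the thin filament, *Acta2* encodes the alpha actin of smooth muscle. *Acta2* (ENSMUSG00000035783, chromosome 19 from 34241090 to 34255590, minus strand) was at 160, 167, 83.5 and 89.2 CPM across the control mice and at 267, 36.0 and 114 CPM across the *Notch3*-/- mice. *Notch3*-/- mouse 1 was above and *Notch3*-/- mouse 2 below all control mice, with the mouse in between inside the control range. The libraries repeated this order, since the 3 libraries of *Notch3*-/- mouse 1 had 288, 234 and 260 counts per 1e+06 counts and those of *Notch3*-/- mouse 2 had 30.3, 31.2 and 38.5. The mean was 125 ± 44.7 CPM (SD, n = 4) in control and 139 ± 117 CPM (SD, n = 3) in *Notch3*-/- hearts. The log2 fold change of *Acta2* was 0.15 (SE 0.53, 95% confidence interval -1.04 to 1.34, edgeR, Benjamini-Hochberg FDR 0.949), an interval that takes in both clearly lower and clearly higher levels. It was -0.73 without *Notch3*-/- mouse 1, 0.60 without *Notch3*-/- mouse 2 and 0.68 in the k-labelled mice alone.

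*Acta2* was highest within each genotype in the mouse with many *Xist* counts, control mouse 2 and *Notch3*-/- mouse 1. Each genotype held 1 such mouse. Control mouse 2 (167 CPM) was close to control mouse 1 (160 CPM), a mouse with many Y-linked counts. These X-labelled mice lay above the k-labelled control mice 3 and 4 (83.5 and 89.2 CPM). With sex as a covariate, a setting added after the data were seen, the log2 fold change of *Acta2* was -0.19, and in the 5 mice with many Y-linked counts it was -0.56. What part sex or the label had in the *Acta2* levels was not tested. *Notch3*-/- mouse 1 had both the lowest *Myh11* level and the highest *Acta2* level of the 7 mice.

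*Actg2* encodes the gamma actin of smooth muscle, which is better known from the gut than from vessels. *Actg2* was at 6.59, 3.37, 4.71 and 7.01 CPM in control mice and at 4.37, 3.58 and 4.35 CPM in *Notch3*-/- mice. All *Notch3*-/- values fell inside the control range, and the log2 fold change was -0.38 (SE 0.35, edgeR, Benjamini-Hochberg FDR 0.754).

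*Tagln* encodes transgelin (SM22 alpha), an actin-binding protein that appears early in smooth muscle differentiation. *Tagln* was at 33.6, 18.3, 15.8 and 29.7 CPM across the control mice and at 8.74, 18.3 and 10.8 CPM across the *Notch3*-/- mice. *Notch3*-/- mice 1 and 3 were below all control mice, whereas *Notch3*-/- mouse 2 lay between control mice 2 and 3. *Tagln* had a log2 fold change of -0.93 (SE 0.35, 95% confidence interval -1.71 to -0.15, edgeR, Benjamini-Hochberg FDR 0.396). The 3′ end of *Tagln* shares 108 bases with *Pcsk7* on the opposite strand, and *Pcsk7* itself had a log2 fold change of 0.41 (edgeR, Benjamini-Hochberg FDR 0.594).

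Calponin, encoded by *Cnn1*, binds actin and slows its sliding over myosin, and leiomodin, encoded by *Lmod1*, starts new actin filaments. *Cnn1* had 7, 11, 8 and 2 counts across the control mice and 3, 0 and 9 across the *Notch3*-/- mice. For *Lmod1* there were 6, 7, 3 and 5 counts across the control and 1, 3 and 4 across the *Notch3*-/- mice. Neither gene passed the expression filter, and the groups overlapped for both. DESeq2, which tested them, gave log2 fold changes of -1.09 for *Cnn1* (adjusted p 0.869) and -1.35 for *Lmod1* (adjusted p 0.757). For the count of 0 of *Cnn1* in *Notch3*-/- mouse 2, 3 counts correspond to 0.631 CPM.

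*Smtn* encodes smoothelin, which is bound to the actin of contractile smooth muscle. *Smtn* was at 473, 349, 396 and 424 CPM in control mice and at 368, 326 and 360 CPM in *Notch3*-/- mice. Control mouse 2 lay among the *Notch3*-/- mice, and the log2 fold change was -0.22 (SE 0.12, edgeR, Benjamini-Hochberg FDR 0.560). *Smtn* shares 714 exon bases with *Gm11946* on the opposite strand, and 9.34% of the 51-base words of its transcripts, the length of a read, also occur there. It shares a further 39 with *Gm11947*, which had 0 to 2 counts in each mouse. *Gm11946* had a log2 fold change of -0.11 (edgeR, Benjamini-Hochberg FDR 0.894). Use of strand in the counting is not given in the sources used here, so reads of these overlapping genes cannot be told apart.

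*Myocd* encodes myocardin, the cofactor of serum response factor in heart and smooth muscle cells. *Myocd* was at 399, 311, 377 and 410 CPM in control mice and at 416, 283 and 324 CPM in *Notch3*-/- mice. The groups overlapped, with *Notch3*-/- mouse 1 the highest and *Notch3*-/- mouse 2 the lowest of the 7 mice. Its log2 fold change was -0.14 (SE 0.15, 95% confidence interval -0.48 to 0.21, edgeR, Benjamini-Hochberg FDR 0.806). It was -0.30 without *Notch3*-/- mouse 1, -0.02 without *Notch3*-/- mouse 2 and -0.38 (SE 0.13, FDR 0.429) in the mice with many Y-linked counts.

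**Figure D3:**
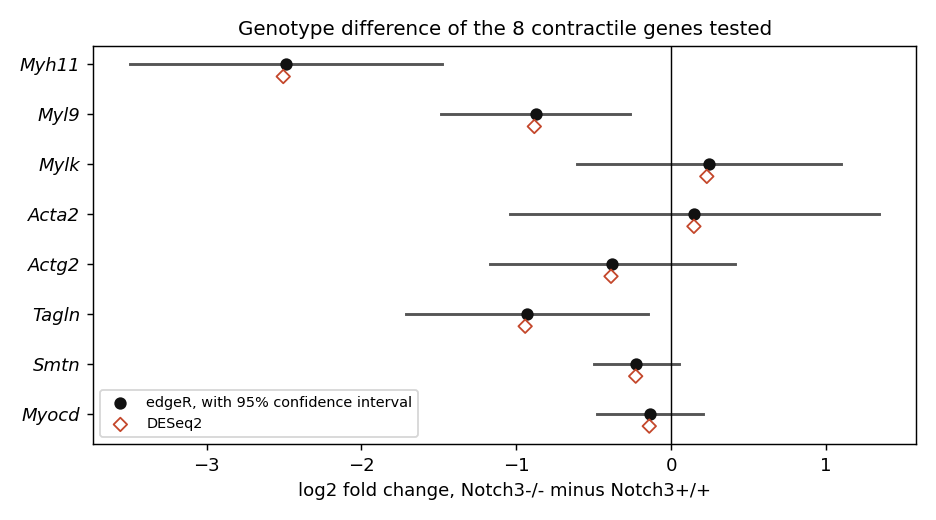
Log2 fold change, *Notch3*-/- minus control, of the 8 contractile genes that passed the expression filter; filled points are edgeR estimates with their 95% confidence interval and open diamonds are DESeq2 estimates. The interval of *Myh11*, -3.49 to -1.48, lies apart from 0, and that of *Acta2*, -1.04 to 1.34, spans it.

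Levels of different genes were compared per kb of exon. In control hearts the mean level was 93.7 CPM per kb for *Smtn*, 58.3 for *Myocd*, 56.9 for *Acta2*, 31.9 for *Myl9* and 12.2 for *Tagln*. It was 4.17 CPM per kb for *Mylk*, 3.48 for *Actg2*, 2.98 for *Myh11*, 0.655 for *Cnn1* and 0.369 for *Lmod1*. *Smtn* was above *Myocd* in all 4 control mice, whereas *Myocd* was above *Acta2* in 2 of them, so *Myocd* and *Acta2* did not differ beyond their spread. *Mylk* was above *Actg2* in 4 of 4 control mice, and *Actg2* above *Myh11* in 2 of 4, so *Actg2* and *Myh11* did not differ beyond their spread either. *Myh11* and *Lmod1*, which mark smooth muscle more narrowly than *Smtn* and *Myocd* do, were thus near the low end of the order, and *Myocd* is also active in cardiomyocytes. In *Notch3*-/- hearts *Myh11* was at 0.523 ± 0.124 CPM per kb (SD, n = 3) and *Actg2* at 2.63 ± 0.291 (SD, n = 3).

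The genes differed in their pattern across mice. In *Notch3*-/- mouse 3 all 8 tested genes were below the control mean, their median log2 difference being -0.53. In *Notch3*-/- mouse 2 it was 7 of 8 genes with a median of -0.44, and *Mylk* was the exception. In *Notch3*-/- mouse 1 it was 6 of 8 genes with a median of -0.19, and *Acta2* and *Myocd* were the exceptions. The control mice differed among themselves as well, since 0 of 8 genes were below the control mean in control mouse 1 and 7 of 8 in control mouse 3.

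**Figure D4:**
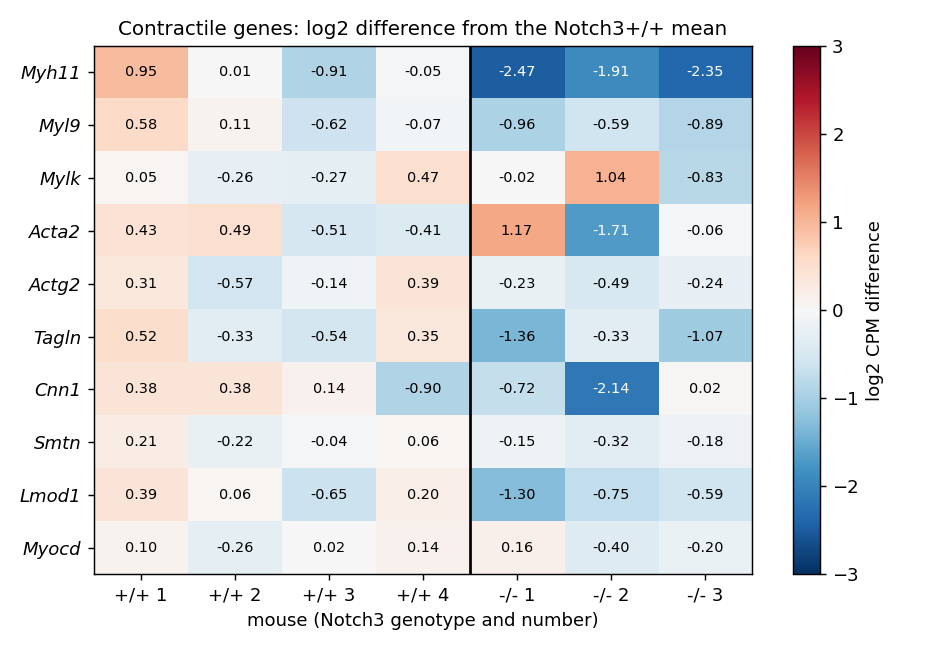
Log2 difference of each contractile gene (rows) from the mean of the control mice, in each control (+/+) and *Notch3*-/- (-/-) mouse (columns); the number in each field is the difference in log2 CPM with a prior count of 2. *Myh11* is at -2.47, -1.91 and -2.35 in the 3 *Notch3*-/- mice; the values of *Cnn1* and *Lmod1* rest on 0 to 11 counts.

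*Myh11* was set against the other contractile genes within each mouse. The log2 CPM of *Myh11* minus the mean log2 CPM of the other 7 tested genes was -0.97, -1.45, -2.22 and -1.78 across the control mice and -3.87, -3.12 and -3.46 across the *Notch3*-/- mice. Every *Notch3*-/- mouse was below every control mouse, and the difference of the group means was -1.88. In the k-labelled mice alone this difference was -1.48. These values are a description without a p, because *Myh11* was singled out with its difference already known.

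The mean standardised log2 CPM of the 8 tested genes was compared with each of 14316 other genes over the 7 mice. The most alike by Pearson's r were *Acaa2* (0.976), *Hnrnpl* (0.971), *Rbm3os* (0.968), *Vsig2* (0.964) and *Rplp0* (0.964). With 7 mice many genes come close to any pattern, and 93 genes had an r above 0.9. The gene nearest to this mean within the set was *Smtn* (r 0.912) and the most distant were *Acta2* (0.262) and *Mylk* (0.181).

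Promoter sequences were available from RefSeq (GRCm38.p6) for 6 of the 10 genes, *Acta2*, *Cnn1*, *Smtn*, *Lmod1*, *Mylk* and *Myl9*, and the table used has no entry for *Myh11*, *Tagln*, *Myocd* and *Actg2*. The 250 bases before the start were searched on both strands for the CArG box in its strict form and for the core TGGGAA of RBPJ, the DNA-binding partner of Notch receptors. The stretches with a match are shown because serum response factor is the regulator that the contractile genes have in common. A strict CArG box was found for 1 of the 6 genes, *Myl9*, where 1.47% of 32851 promoters hold it. A CArG box with 1 G or C among its 6 central bases, a form added after the sequences were seen, was found for *Acta2* and *Myl9*, where 7.24% of promoters hold it. The RBPJ core was found for *Acta2* and *Smtn*, where 21.6% of promoters hold it. In the following stretches, which run 5′ to 3′ in the direction of the gene, the capitals mark the motifs.
*Myl9*, chr2:156775293-156775322, plus strand, strict CArG box 161 to 152 bases before the start: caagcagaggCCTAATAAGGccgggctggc
*Myl9*, chr2:156775355-156775384, plus strand, CArG box with 1 G 99 to 90 bases before the start: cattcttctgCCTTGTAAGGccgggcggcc
*Acta2*, chr19:34255438-34255467, minus strand, CArG box with 1 C 84 to 75 bases before the start: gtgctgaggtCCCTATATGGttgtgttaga
*Acta2*, chr19:34255386-34255415, minus strand, CArG box with 1 G, overlapped by the RBPJ core, 34 to 22 bases before the start: tctttgctCCTTGTTTGGGAAgcgagtggg
*Smtn*, chr11:3539343-3539372, minus strand, RBPJ core on the opposite strand 68 to 63 bases before the start: aaaaattgaattTTCCCAatgggaccagag
Both *Acta2* stretches lie inside the first exon of an *Acta2* transcript in GENCODE vM21, which starts further upstream than the RefSeq start. A match is a description of the letters, and binding was not measured here.

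Other lists of genes were examined for comparison. Further markers of vascular smooth muscle had log2 fold changes of the same sign as *Myh11*. Of 10 such genes 8 were tested, all 8 had a negative log2 fold change with a median of -0.51, and 0 were called by edgeR or DESeq2. With an unadjusted p under 0.05 in edgeR 2 were lower and 0 higher, where 3.05% of all genes tested were lower and 7.34% higher. For 3 of the 8 (*Ntf3*, *Mustn1* and *Nrip2*) the groups did not overlap, with *Notch3*-/- lower, where this held for 3.96% of all genes tested. *Ntf3*, which encodes a neurotrophin, was at 7.90, 4.00, 7.06 and 9.69 CPM across the control mice and at 1.91, 3.79 and 3.21 CPM across the *Notch3*-/- mice. *Ntf3* differed by a log2 fold change of -1.23 (SE 0.40, edgeR, Benjamini-Hochberg FDR 0.322). *Tinagl1*, the most abundant gene of this list, had a log2 fold change of -0.11.

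Of 10 channel, receptor and cyclic nucleotide genes of vascular smooth muscle 7 were tested, and all 7 were negative with a median of -0.29. With an unadjusted p under 0.05 in edgeR 2 were lower and 0 higher, where 3.05% of all genes tested were lower and 7.34% higher. Of this list 0 were called by edgeR or DESeq2. *Gucy1a1* and *Gucy1b1*, the subunits of the receptor through which nitric oxide relaxes smooth muscle, had log2 fold changes of -0.55 (SE 0.21) and -0.54 (SE 0.20), with a Benjamini-Hochberg FDR of 0.424 and 0.391 in edgeR. *Gucy1a1* was at 55.6, 36.9, 40.2 and 65.8 CPM in control mice and at 33.9, 35.8 and 32.0 CPM in *Notch3*-/- mice. The groups did not overlap for 2 of the 7 genes, these subunits, with *Notch3*-/- lower, where this held for 3.96% of all genes tested. *Pde3a*, the most abundant gene of this list, had a log2 fold change of -0.29 with overlapping groups.

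*Ppp1r12c*, a myosin phosphatase subunit, had a log2 fold change of -0.42 (SE 0.15, edgeR, Benjamini-Hochberg FDR 0.362), with 34.8 to 43.8 CPM in control and 29.1 to 32.0 CPM in *Notch3*-/- mice. The other phosphatase subunits *Ppp1r12b*, *Ppp1r12a* and *Ppp1cb* had -0.21, -0.17 and -0.04, *Calm2* and *Calm3* had -0.10 and -0.31, and edgeR and DESeq2 called none of these 6. The regulators of serum response factor had a median of -0.11 over 9 genes, with *Mrtfa* at 0.49 (SE 0.19), *Foxo4* at -0.77 (SE 0.39) and *Fhl2* at -0.18 on the log2 scale. Other thin filament, intermediate filament and dense plaque genes had a median of -0.04 over 16 genes, with *Des* at -0.26 and *Nexn* at -0.28. None of the genes of these 2 lists was called by edgeR or DESeq2. At an unadjusted p under 0.05 in edgeR there was 1 gene, *Mrtfa*, which was higher, where 7.34% of all genes tested were higher.

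Relatives of the contractile genes from the same families, which are expressed in other cells, were centred on a log2 fold change of 0.11 (median of 16 tested genes), and 7 were negative. In edgeR 1 of them (*Lmod2*) was lower and 0 higher with an unadjusted p under 0.05, where 3.05% of all genes tested were lower and 7.34% higher. Of these relatives 0 were called by edgeR or DESeq2. *Myh9* and *Myh10*, the nonmuscle myosin heavy chains, had log2 fold changes of 0.14 and 0.36, and their groups overlapped. *Lmod2*, the leiomodin of heart muscle, was at 272 to 376 CPM in control and 221 to 264 CPM in *Notch3*-/- mice, with a log2 fold change of -0.45 (SE 0.13, edgeR, Benjamini-Hochberg FDR 0.273). *Myl12a* had -0.27 and *Mylk3*, the kinase of heart muscle and the most abundant relative, had -0.27. Of the 51-base words of *Myh11* transcripts 0.314% also occurred in transcripts of another gene of the counts table, such as *Myh9*, and of those of *Acta2* 0.28% did. These are exact matches, and how many reads were counted on a relative was not tested. Genes of matrix-producing smooth muscle had a median of 0.30 over 12 genes, with *Fn1* at 2.38 (SE 0.61), *Eln* at 0.38 and *Tpm4* at 0.18. In edgeR 1 (*Fn1*) was higher at an unadjusted p under 0.05, where 7.34% of all genes tested were higher, and 0 were called. DESeq2 called 1 (*Spp1*) as higher, beside 3.29% of all genes given an adjusted p. *Fn1* was at 230 and 544 CPM in *Notch3*-/- mice 1 and 2, the mice in which the hepatocyte genes were high too. In *Notch3*-/- mouse 3 it was at 49.0 CPM, against 33.4 to 68.8 CPM in control mice. *Spp1* did not pass the expression filter of edgeR and had 97 counts in *Notch3*-/- mouse 2, 7 and 10 in the other *Notch3*-/- mice and 3 to 6 in control mice.

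Markers of other cells were measured beside these genes. Over the 14 pericyte genes the median of the log2 fold change was -0.17. In edgeR 4 were lower and 1 higher at an unadjusted p under 0.05, where 3.05% of all genes tested were lower and 7.34% higher. For 4 of the 14 the groups did not overlap, with *Notch3*-/- lower, where this held for 3.96% of all genes tested. Of the 14 genes 0 were called by edgeR and 1 (*Vtn*) was called as higher by DESeq2, where over all genes it was 3.29%. *Rgs5*, the most abundant of them, was at 540, 514, 511 and 576 CPM in control and 451, 417 and 397 CPM in *Notch3*-/- mice, and *Cox4i2* had a log2 fold change of -1.02 (SE 0.27). *Vtn*, which hepatocytes also express, was the gene that was higher, with 295 and 697 CPM in *Notch3*-/- mice 1 and 2 and 54.3 CPM in *Notch3*-/- mouse 3 against 53.6 to 69.8 CPM in control mice. The 12 endothelial genes had a median of 0.04, with *Tek* at 0.29, *Pecam1* at 0.29 and *Eng* at 0.06, and the 10 arterial endothelial genes had a median of 0.07, with *Gja5* at 0.45 and *Dll4* at 0.24. The groups overlapped for 11 of these 12 endothelial genes and all 10 arterial genes. *Tek* was the exception, with every *Notch3*-/- mouse above every control mouse, where this held for 4.57% of all genes tested. In both lists 0 had an unadjusted p under 0.05 in edgeR and 0 were called by edgeR or DESeq2.

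All 14 cardiomyocyte genes had a negative log2 fold change with a median of -0.24, and 0 of them had an unadjusted p under 0.05 in edgeR or were called by edgeR or DESeq2. They summed to 39256, 28827, 33190 and 38125 CPM across the control mice and to 38643, 26297 and 28117 CPM across the *Notch3*-/- mice, with *Ttn* the most abundant. *Actn2* was at -0.21, *Myl3* at -0.28 and *Ttn* at -0.10 on the log2 scale. The 4 atrial genes tested had a median of 0.04, with *Dkk3* at 1.00, *Myl4* at -0.88 and *Nppa* at 0.51, and the groups overlapped for all of them. With an unadjusted p under 0.05 in edgeR 1 (*Dkk3*) was higher, where 7.34% of all genes tested were higher. Of the atrial genes 0 were called by edgeR or DESeq2. Over 11 fibroblast genes the median was 0.11, with *Col3a1* at 0.79 (SE 0.16), *Col1a1* at 0.62 (SE 0.16) and *Gsn* at -0.23. In edgeR 5 were higher and 1 lower at an unadjusted p under 0.05, where 7.34% of all genes tested were higher and 3.05% lower. Of the 11 genes 0 were called by edgeR and 2 (*Col1a1* and *Col3a1*) as higher by DESeq2 (3.29% over all genes). All 16 hepatocyte genes were higher at an unadjusted p under 0.05 in edgeR, where 7.34% of all genes tested were higher. Their median was 7.09, with *Tat* at 8.77, *Cyp2e1* at 6.82 and *Trf* at 3.23. Of the 16 genes 0 were called by edgeR and 15, all as higher, by DESeq2 (3.29% over all genes). What part these other cells had in the levels of the contractile genes was not tested.

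**Figure D5:**
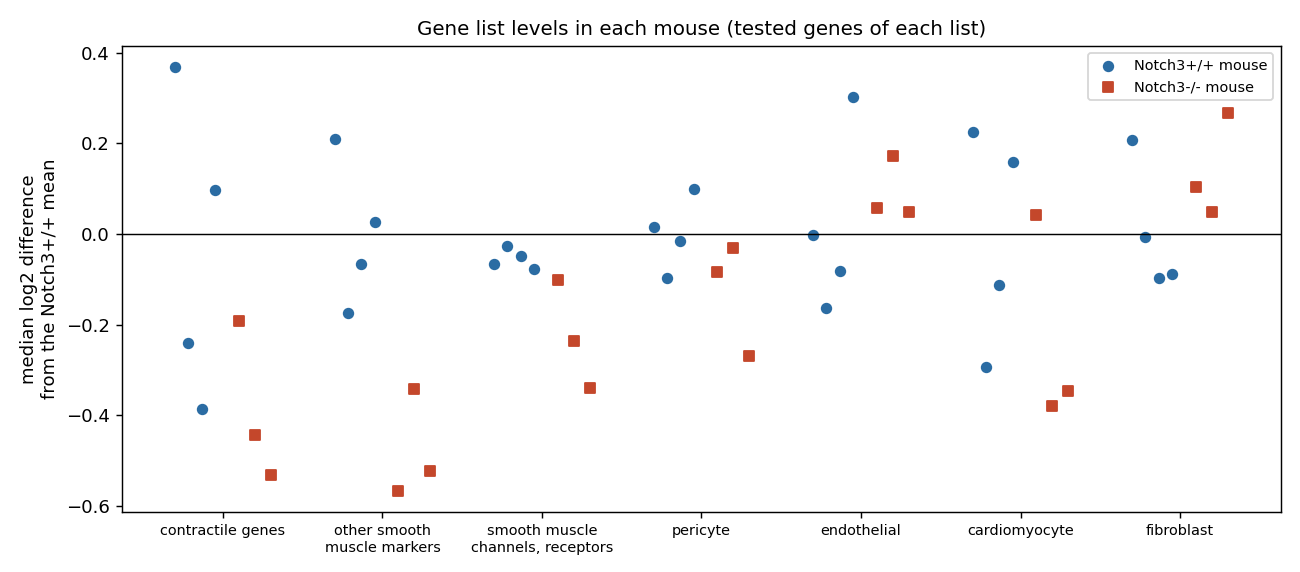
Level of 7 gene lists in each mouse, given as the median over the tested genes of a list of the log2 difference from the control mean; circles are control and squares *Notch3*-/- mice. Other smooth muscle markers sit at -0.57, -0.34 and -0.52 in the *Notch3*-/- mice, below the control mice at -0.17 to 0.21, while the contractile genes of both groups overlap. Smooth muscle channels and receptors also lie lower, at -0.10, -0.24 and -0.34 in the *Notch3*-/- mice against -0.08 to -0.03 in the control mice.

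Genes downstream of Notch gave differing values in the same hearts. Of the 6 genes listed, *Notch3* included, 4 were negative with a median of -0.37, and *Notch3* was the only one called. *Hes1* had a log2 fold change of -0.62 (SE 0.27, edgeR, Benjamini-Hochberg FDR 0.476), with 11.4 to 22.1 CPM in control and 10.6 to 11.8 CPM in *Notch3*-/- mice, so that the groups overlapped. *Heyl*, a target of *Notch3* in mural cells, had 0.26 (SE 0.14) and overlapping groups, with 54.4 to 68.5 CPM in control and 66.4 to 82.5 CPM in *Notch3*-/- mice.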

How the data were processed

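The authors deposited whole-number counts of reads per gene for 21 libraries, without normalization. The submitters' processing notes name CASAVA and the build mm10, and the aligner and the counting program are not given in the sources used here. The table holds 46609 lines, of which 92 are ERCC spike-in sequences (34 counts in all) and were left out. Symbols, coordinates and exon lengths were taken from GENCODE vM21 (GRCm38), which holds 46005 of the 46517 identifiers. Counts of 3 technical libraries were summed per mouse and tested in R 4.3.3 with edgeR 4.0.16 (filterByExpr with its minimum count of 10, TMM, quasi-likelihood F-test, two-sided, genotype as the only term). DESeq2 1.42.0 (Wald test without shrinkage) and limma 3.58.1 were used as alternatives, and the pipeline was tested on simulated data. Log2 CPM used a prior count of 2. Besides the 10 genes and *Notch3*, the genes named are, from each of the other lists, those called, or else the 2 with the smallest p and the most abundant one, and the 5 most alike genes and genes overlapping exons. *Myh9*, *Myh10*, *Nrip2*, *Ppp1r12a*, *Ppp1cb*, *Calm2*, *Spp1* and the sex-linked genes were named after their values were seen. An exact permutation test of *Myh11* relative to the other genes was planned and is not given, because the gene had been singled out for its difference. The contractile genes and the lists were chosen with earlier results of these data known. The summary of 1 gene list and some of its genes are not reported here.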

Additional observations from a re-analysis of the deposited data

How the results depend on the processing

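The median log2 fold change of the contractile genes stayed negative in all 21 alternatives. It was -0.64 with DESeq2 and -0.65 with every gene that had at least 1 count, which add the low genes, and -0.73 to -0.21 when each mouse was left out. The -0.73, without *Notch3*-/- mouse 1, is a median over 9 tested genes instead of 8. In place of 1 called gene among all tested there were 597 with DESeq2, 639 with at least 1 count, 0 in the k-labelled mice, 48, 39 and 77 with technical library 1, 2 or 3 alone, 0 in mice with many Y-linked counts (an alternative added after the data were seen), and 1 to 936 when each mouse was left out, the highest without *Notch3*-/- mouse 3. Of the contractile genes 0 were called in 16 of 22 alternatives, and 1 (*Myh11*) with DESeq2, with at least 1 count, with technical library 2 alone and without *Notch3*-/- mouse 3 (0 to 1 when each mouse was left out). Technical replicate numbers did not pair libraries, since deviations of same-numbered libraries of different mice had a median r of -0.008 (-0.284 to 0.206). In limma-voom on 7 mice 1 gene was called over all and 0 contractile genes (*Myh11* at -2.28, FDR 0.604). On 21 libraries 65 genes were called without and 62 with the replicate block, with 1 contractile gene, *Myh11*, in both (-2.72 and -2.70, FDR 0.0303 and 0.0400 from limma with Benjamini-Hochberg adjustment). In these fits the mouse entered only through 1 correlation shared by all genes, 0.152 without and 0.145 with the replicate block. At such low values the 3 libraries of a mouse count nearly as separate samples. These calls are therefore no support beyond that of the 7 mice. The log2 fold change of *Acta2* was reversed without control mouse 3 (-0.01) and *Notch3*-/- mouse 1 (-0.73), in limma-voom on 7 mice (-0.25) and on 21 libraries without (-0.26) and with the replicate block (-0.25), with technical library 2 alone (-0.057), with sex as a covariate (-0.19) and in mice with many Y-linked counts (-0.56), and ran from -0.73 to 0.60 when each mouse was left out. That of *Myocd* was reversed with technical library 1 alone (0.13; -0.30 to -0.02 when each mouse was left out) and that of *Mylk* without *Notch3*-/- mouse 2 (-0.41, and -0.41 to 0.59 when each mouse was left out). *Myh11* relative to the other genes was -2.08 to -1.67 when each mouse was left out, -1.48 in the k-labelled mice, -1.09, -2.70 and -1.83 with technical library 1, 2 or 3 alone, -2.36 with the endothelial genes and -2.04 with *Acta2* alone as the reference. The cause of these changes was not tested.

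*Cnn1* and *Lmod1*, with 0 to 11 counts per mouse, were not tested in the main fit. *Myh11* had 12 to 24 counts in each *Notch3*-/- mouse, and its FDR over all alternatives ran from 5.66e-05 to 0.734 (edgeR, DESeq2 or limma with Benjamini-Hochberg adjustment).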
